A study of Homo sapiens with 2 samples.

Results

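A set of 40 genes of glycolysis and of the response to low oxygen were followed in PC-3 cells after knockdown of SHISA2. They comprise 19 glycolytic enzymes and their regulators, 3 genes around pyruvate dehydrogenase, 6 subunits or regulators of the hypoxia-inducible factor (HIF), and 12 HIF targets. A gene's value comes from the probe set that is annotated to it alone and has the highest mean log2 signal. All 40 have such a probe set, out of 19775 genes of the array, and 39 of them were measured, with a signal above a floor of 47.9 on at least 1 array; EGLN3 was not. The series holds 2 arrays with 1 group each: siSHISA2, PC-3 cells with an shRNA vector against SHISA2, and siCONTROL, PC-3 cells with the control shRNA vector. PC-3 cells come from a bone metastasis of a prostate cancer and grow without androgen. The shRNA sequences, the number of cultures or clones, the time of harvest, and the glucose and oxygen in the culture are not given in the sources used here. Each group is 1 array, so how far these values vary from culture to culture is unknown, no test was made, and precision is limited by the 2 arrays.

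Glycolysis splits glucose into pyruvate in the cytosol, first spending ATP to phosphorylate the sugar and then regaining ATP and NADH from its 3-carbon fragments. Lactate dehydrogenase turns pyruvate into lactate and renews NAD, while pyruvate dehydrogenase, inside mitochondria, turns pyruvate into acetyl-CoA. HIF is a transcription factor of an oxygen-sensitive alpha subunit and a constant beta subunit. In oxygen, prolyl hydroxylases of the EGLN family mark the alpha subunit, and the VHL protein directs it to degradation. When oxygen is scarce the alpha subunit persists, and HIF raises the transcription of most glycolytic enzymes and of genes for blood vessel growth, mitophagy and collagen maturation. HIF alpha is set mainly at the level of protein, so HIF1A mRNA is not a readout of HIF activity. Many cancer lines run glycolysis at a high rate in oxygen as well.

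SHISA2 itself had a signal of 1506 on the siSHISA2 array and 3536 on the siCONTROL array, 42.6% of the control. Differences between arrays are log2 ratios of siSHISA2 over siCONTROL. The only yardstick of error is technical: the log2 ratios of a gene's 2 brightest measured probe sets differed with an SD that, divided by the square root of 2, was 0.286 over 6428 genes, and 0.150 over the 2827 genes for which both probe sets had both signals above 387.3, the 75th percentile of all signals. Of the listed PC-3 epithelial markers 3 of 5 were measured, with KRT18 at 17533 on the siSHISA2 array and 18339.7 on the siCONTROL array, while CDH1 and KRT19 were under the floor on both. Of the androgen-axis genes, KLK3, which PC-3 cells are known to lack, had 251.0 on siSHISA2 and 242.3 on siCONTROL on a probe set of the _x_at kind, KLK2 had 71.3 on siSHISA2 and 20.6 on siCONTROL, at least 1.49-fold higher, and TMPRSS2 was under the floor. Of listed markers with a probe set of their own, 1 of 4 was measured for leukocytes, 2 of 5 for endothelium, 2 of 6 for fibroblasts and 1 of 2 for erythroid cells. Their signals summed to 57.3 against 30.6 for leukocytes, 383.2 against 260.5 for endothelium, 630.3 against 823.1 for fibroblasts and 96.3 against 153.8 for erythroid cells (siSHISA2 against siCONTROL). The leukocyte value was CD3E alone, under the floor on siCONTROL. The erythroid value was HBB alone (-0.68, with 0.70 and, with its siSHISA2 signal under the floor, -0.49 on its other probe sets). The measured endothelial genes were CDH5, at 261.5 on siSHISA2 and 155.9 on siCONTROL (0.75), and PECAM1, at 121.7 on siSHISA2 and 104.6 on siCONTROL (0.22, with -0.56 on its other probe set). The brightest fibroblast marker was COL1A1, at 577.0 on siSHISA2 and 787.2 on siCONTROL (-0.45, with 0.92 and 0.18 on its other probe sets). PTPRC, VWF and COL1A2 were under the floor on both arrays. The part of such cells in the results was not tested.

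The module as a whole was close to level between the arrays. Of the 39 measured genes, 22 had a log2 ratio above 0 and 17 below, with a median of 0.02, beside a median of 0.01 over all 12931 measured genes, 52.2% of which were above 0 and 47.8% below. A signal at least 25% above the control, a threshold of size and not a test, was found for 4 members, VHL, ANGPTL4, ADM and EPAS1, or 10.3% of those measured, and for 13.1% of all measured genes. A signal of at most 80% of the control, the same fold downwards, was found for 2 members, CA12 and ENO2, or 5.13%, and for 12.0% of all measured genes. A fold of 1.5 was reached by 0 members on the higher side (background 5.01%) and on the lower side by CA12 alone (background 3.77%). A fold of 2 was reached by 0 members in either direction, where the backgrounds were 0.920% higher and 0.565% lower. In RNA from whole cultures, fewer expressing cells and less RNA per cell cannot be told apart. Within 0.286 of 0 lay 31 members, or 79.5% of those measured, as did 70.7% of all measured genes. These shares were not matched for brightness. Both signals were above 387.3 for 31 of the 39 members but for 7650 of the 12931 genes. The ratios of such genes were smaller, with a median size of 0.12 against 0.17 over all measured genes.

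**Figure D1:**
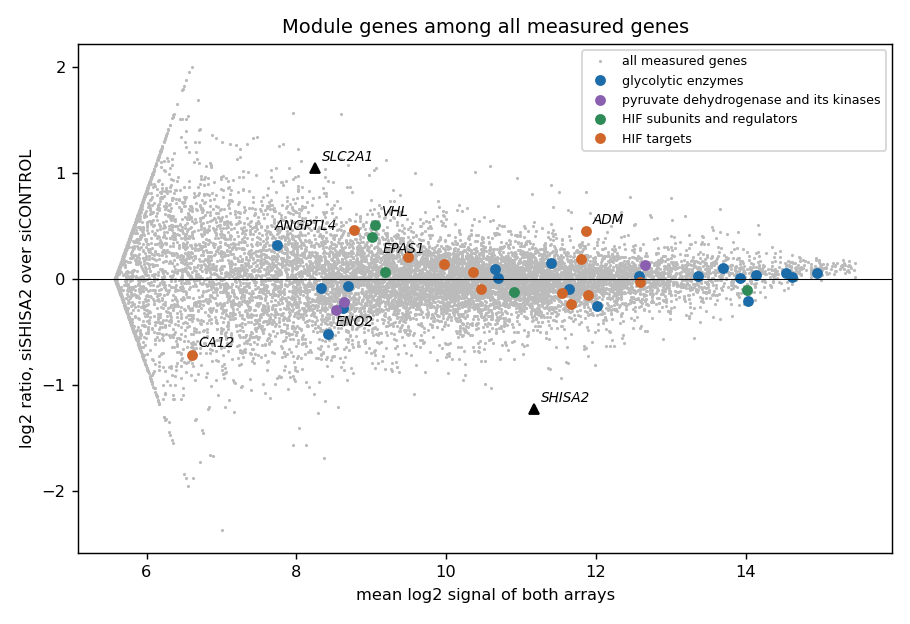
Log2 ratio of siSHISA2 over siCONTROL (vertical) against the mean log2 signal of both arrays (horizontal) for 12931 measured genes in grey and the 39 measured module genes in colour by class. The module genes lie in the middle of the cloud, between -0.71 for CA12 and 0.51 for VHL, while the triangles mark SHISA2 at -1.23 and the glucose transporter gene SLC2A1 at 1.05.

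Of the 31 members with both signals above 387.3, 20 were above 0, as were 50.2% of the 7650 such genes in all. This count depended on the scaling. TPI1, GAPDH, PGK1, PGAM1, LDHA and LDHB, all among the 20, were slightly below 0 after removal of a loess trend. After quantile normalization the same genes except PGK1 were below 0. Among the 31 brighter members EPAS1, ADM and VHL were at least 25% above the control (background among brighter genes 4.69%). At or below 80% of it were 0 (background 6.99%). Of the 20 members with several measured probe sets, 10 had all of them on the same side of 0, and among all genes with several measured probe sets 45.6% did. For 20 of the 39 members the probe set used was of the _s_at or _x_at kind, which can share probes with other transcripts, and this was so for 12 of the 19 glycolytic genes.

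The promoters of 6 members are shown as examples with different ratios: ADM, ANGPTL4 and EPAS1 were higher, ENO2 and PDK3 lower, and PGK1 is a textbook HIF target that was nearly level. CA12, the lowest member, had 2 matches to the core described next and is not shown. A part of these promoters in the ratios was not tested. HIF binds a short core, ACGTG or GCGTG, which was searched on both strands, so that it also appears as CACGT or CACGC. Each sequence runs 5′ to 3′ from 250 bases before to 50 bases after the gene's start (RefSeq, GRCh38.p14), and the capitals mark the core.
ADM (chr11:10304823-10305122, plus strand): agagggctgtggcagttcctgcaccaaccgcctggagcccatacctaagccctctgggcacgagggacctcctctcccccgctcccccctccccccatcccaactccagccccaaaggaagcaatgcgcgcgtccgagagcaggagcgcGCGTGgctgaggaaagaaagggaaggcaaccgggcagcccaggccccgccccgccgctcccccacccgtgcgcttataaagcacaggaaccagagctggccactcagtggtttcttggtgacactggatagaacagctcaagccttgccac
ANGPTL4 (chr19:8363905-8364204, plus strand): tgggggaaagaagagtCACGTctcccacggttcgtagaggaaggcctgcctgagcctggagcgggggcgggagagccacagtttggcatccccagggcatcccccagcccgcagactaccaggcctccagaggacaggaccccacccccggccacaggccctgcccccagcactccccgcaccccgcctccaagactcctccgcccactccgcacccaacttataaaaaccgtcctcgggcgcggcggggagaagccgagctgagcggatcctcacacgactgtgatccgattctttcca
EPAS1 (chr2:46297157-46297456, plus strand): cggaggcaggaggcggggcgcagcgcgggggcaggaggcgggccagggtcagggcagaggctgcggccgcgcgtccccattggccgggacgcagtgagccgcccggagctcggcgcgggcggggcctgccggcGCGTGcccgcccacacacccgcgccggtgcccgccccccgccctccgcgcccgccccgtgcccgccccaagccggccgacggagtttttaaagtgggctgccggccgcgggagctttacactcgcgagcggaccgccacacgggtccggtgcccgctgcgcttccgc
ENO2 (chr12:6914330-6914629, plus strand): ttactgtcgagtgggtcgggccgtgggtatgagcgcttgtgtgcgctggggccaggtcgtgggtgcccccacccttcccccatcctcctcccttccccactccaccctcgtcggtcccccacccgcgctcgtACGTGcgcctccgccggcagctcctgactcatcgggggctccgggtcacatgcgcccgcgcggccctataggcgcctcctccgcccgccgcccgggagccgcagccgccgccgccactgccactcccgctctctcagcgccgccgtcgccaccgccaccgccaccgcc
PDK3 (chrX:24465036-24465335, plus strand): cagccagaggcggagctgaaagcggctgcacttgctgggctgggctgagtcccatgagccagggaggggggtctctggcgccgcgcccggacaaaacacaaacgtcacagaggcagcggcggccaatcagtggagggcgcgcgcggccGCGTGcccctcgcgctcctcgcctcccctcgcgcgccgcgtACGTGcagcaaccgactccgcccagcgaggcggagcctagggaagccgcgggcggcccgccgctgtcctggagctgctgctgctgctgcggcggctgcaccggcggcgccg
PGK1 (chrX:78103998-78104297, plus strand): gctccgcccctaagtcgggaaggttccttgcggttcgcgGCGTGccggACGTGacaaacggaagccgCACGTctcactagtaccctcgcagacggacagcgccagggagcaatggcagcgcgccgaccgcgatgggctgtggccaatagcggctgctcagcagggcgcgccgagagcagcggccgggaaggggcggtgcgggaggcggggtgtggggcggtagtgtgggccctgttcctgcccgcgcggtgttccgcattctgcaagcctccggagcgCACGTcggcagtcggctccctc
The core was found 1 time each in the windows of ADM, ANGPTL4, EPAS1 and ENO2, 2 times in PDK3 and 4 times in PGK1. Of the 36 members in the promoter table, 24 had a single start, and 20 of those 24 (83.3%) held the core, as did 47.3% of all 22114 single-start promoters of this length. The member windows had a median GC content of 68.8%, and the windows of all genes 57.7%; shares were not matched for this. ACGTG alone was in 11 of the 24 and in 21.3% of all, GCGTG in 13 and in 35.4%. The longer CACGTG, the E-box that MYC and MXI1 complexes bind and which contains ACGTG, was in 4 of the 24, in none of the 6 shown, and in 7.28% of all. The 20 members with the core had a median log2 ratio of 0.03 (from -0.71 to 0.47, 12 above 0), and the 3 measured ones without it one of 0.01 (from -0.02 to 0.06). By number of matches, the 5 members with 3 or more (BNIP3, ALDOC, PDHA1, PGK1 and ANKRD37) read 0.04 to 0.32. PGK1 was below 0 after loess, with probe sets averaged, and without _x_at and _s_at probe sets. The 15 members with 1 or 2 matches read -0.71 to 0.47, with 7 above 0. A CACGTG was counted as 2 matches, 1 on each strand. BNIP3, ALDOC and ANKRD37 each held 1 CACGTG, so ANKRD37, with 3 matches, had fewer than 3 separate sites. The split by number of matches was made after the values were seen. A match of letters is a description and not a binding site.

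**Figure D2:**
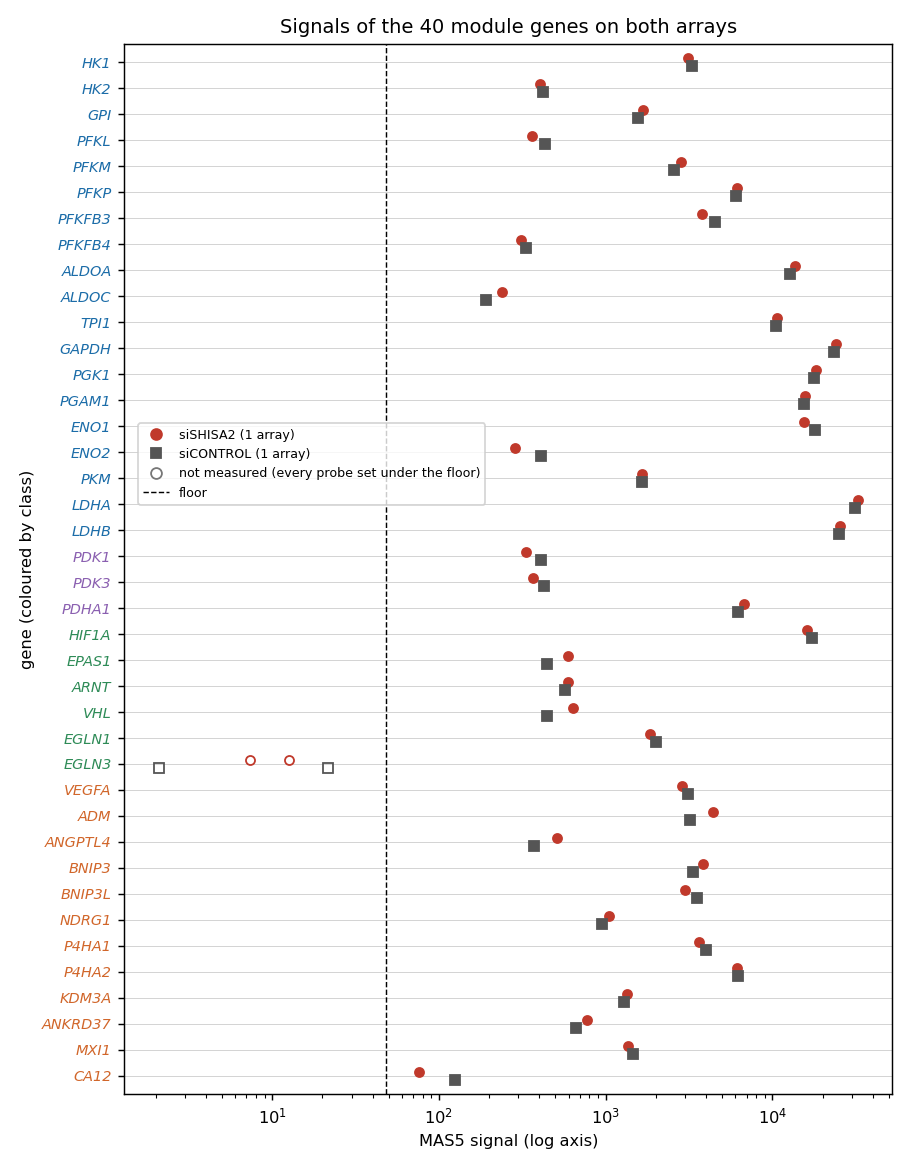
MAS5 signal (log axis) of each of the 40 genes on the siSHISA2 array (circles) and the siCONTROL array (squares), in pathway order. The pairs nearly coincide for most genes, CA12 and ENO2 have the siSHISA2 circle to the left and VHL, ADM and EPAS1 to the right, and the probe sets of EGLN3 lie under the floor of 47.9; signals of different genes are not comparable because probe sets differ in brightness.

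The first steps of glycolysis differed little between the arrays. HK1, the widely expressed hexokinase that traps glucose as glucose 6-phosphate, had 3107 on the siSHISA2 array and 3308 on the siCONTROL array (log2 ratio -0.09). The inducible hexokinase HK2 had 402.1 on siSHISA2 and 421.4 on siCONTROL (-0.07), with 0.32 on a second probe set near the floor. GPI, which turns glucose 6-phosphate into fructose 6-phosphate, had 1667 on siSHISA2 and 1564 on siCONTROL (0.09). None of these 3 moved beyond 0.150.

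Phosphofructokinase, the committed step, is a tetramer of liver, muscle and platelet subunits, and these went different ways by small amounts. The liver subunit PFKL was lower, at 360.1 on the siSHISA2 array and 434.7 on the siCONTROL array (-0.27), and its second probe set was lower too (221.2 on siSHISA2 and 257.3 on siCONTROL, -0.22). The muscle subunit PFKM had 2842 on siSHISA2 and 2556 on siCONTROL (0.15). The platelet subunit PFKP had 6149 on siSHISA2 and 6039 on siCONTROL (0.03). PFKFB3, the bifunctional enzyme that makes fructose 2,6-bisphosphate, the strongest activator of phosphofructokinase, was lower at 3780.2 on the siSHISA2 array and 4519.6 on the siCONTROL array (-0.26, read by a single probe set), and 10.8% of the brighter genes had a ratio as low. PFKL, at 360.1 on siSHISA2, was not one of the brighter genes, and its ratio was within 0.286 of 0. Of the other genes PFKFB3 was lower and PFKM (0.153) barely higher by more than 0.150, and PFKP was level. The related PFKFB4 had 311.9 on siSHISA2 and 330.8 on siCONTROL (-0.08).

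Aldolase splits fructose 1,6-bisphosphate, and its isozymes are ALDOA, found in most cells and in muscle, and ALDOC, known from brain and as a HIF target. ALDOA had 13746 on the siSHISA2 array and 12808 on the siCONTROL array (0.10, with other probe sets at 0.07 and -0.07). ALDOC was higher at 239.8 on siSHISA2 and 192.4 on siCONTROL (0.32, or 124.6% of the control, just under the threshold of 25% above it), and 13.3% of all measured genes had a ratio as high. TPI1, which interconverts the 3-carbon products, had 10694 on siSHISA2 and 10459 on siCONTROL (0.03, with 0.05 and, on a dim probe set, -0.17).

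The steps from GAPDH to pyruvate, which hold the ATP-yielding reactions, were level apart from enolase. GAPDH, the dehydrogenase that makes NADH, had 24164 on the siSHISA2 array and 23292 on the siCONTROL array (0.05), and its other probe sets read 0.07 and -0.03. The array's own GAPDH control probe sets read -0.07 at the 3′ end, 0.05 in the middle and 0.11 at the 5′ end. GAPDH therefore lay between -0.07 and 0.11 wherever it was read. PGK1, which makes the first ATP of the pathway and whose promoter is printed here, had 18269 on siSHISA2 and 17785 on siCONTROL (0.04), while its 3 other measured probe sets ranged from -0.26 to 0.09. PGAM1, the phosphoglycerate mutase, had 15701 on siSHISA2 and 15546 on siCONTROL (0.01). PKM, the pyruvate kinase, had 1660.0 on siSHISA2 and 1652 on siCONTROL (0.01, with 0.16 on a dimmer probe set). None of these ratios reached 0.150 on the probe set used.

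Enolase, which makes phosphoenolpyruvate, was lower in both isozymes. ENO1, the common form, had 15564 on the siSHISA2 array and 17954 on the siCONTROL array (-0.21), and its other probe sets were also lower, at 6087 on siSHISA2 and 6683 on siCONTROL (-0.13) and at 194.0 on siSHISA2 and 207.9 on siCONTROL (-0.10). ENO2, the neuronal form that HIF also induces, had 287.1 on siSHISA2 and 410.1 on siCONTROL (-0.51, 70.0% of the control) on its single probe set. A ratio as low was seen in 15.4% of the brighter genes for ENO1 and in 5.08% of all measured genes for ENO2. With the floor raised to 387.3 ENO2 read -0.08, since its siSHISA2 signal lay under that floor.

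Both lactate dehydrogenase subunits were level. LDHA, the subunit that favours lactate formation, had 32386 on the siSHISA2 array and 31064 on the siCONTROL array (0.06). LDHB had 25364 on siSHISA2 and 24972 on siCONTROL (0.02, with 0.03 on a second probe set). Over the 19 glycolytic genes the median was 0.02, with 12 above and 7 below 0 as deposited, but 7 above after quantile normalization and 6 after removal of a loess trend. TPI1, GAPDH, PGAM1, LDHA and LDHB were then slightly below 0, so that no direction can be given for these genes. In size the ratios of 13 of the 19 were at most 0.150.

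**Figure D3:**
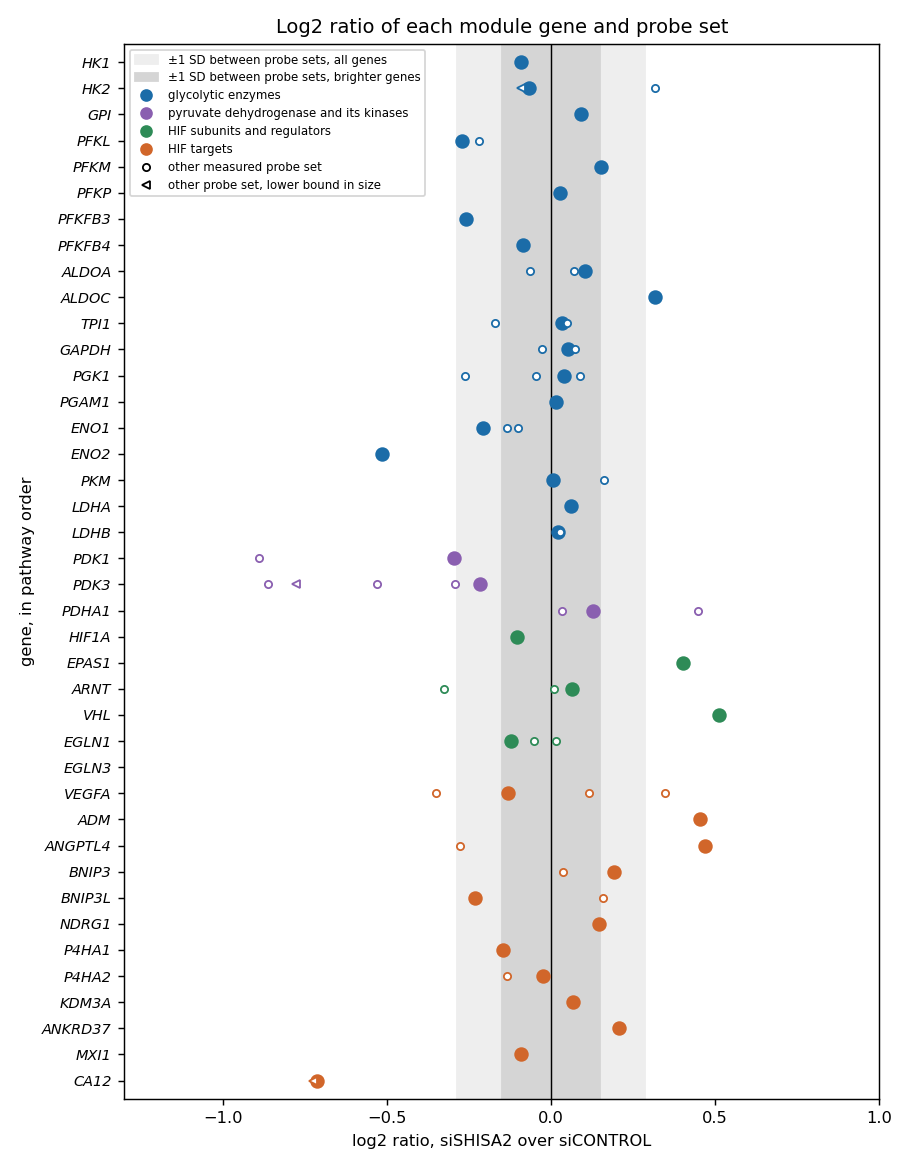
Log2 ratio of siSHISA2 over siCONTROL for each gene in pathway order, with the probe set that represents the gene as a large point and its other measured probe sets as small open ones; the shaded bands are 1 technical SD, 0.150 for brighter genes and 0.286 for all. Most glycolytic genes sit in the inner band, all probe sets of PDK1 and PDK3 lie to the left of 0, and VHL, ANGPTL4, ADM and EPAS1 lie to the right of the outer band.

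Of the 3 members at the gate between glycolysis and mitochondria, the kinases PDK1 and PDK3 were lower and PDHA1 slightly higher. PDK1 and PDK3 phosphorylate and so switch off pyruvate dehydrogenase, and PDK1 is a known HIF target. All 5 measured probe sets of PDK3 were lower. The brightest, which represents the gene, had 367.5 on the siSHISA2 array and 427.1 on the siCONTROL array (-0.22), and the next ones 196.8 on siSHISA2 and 357.4 on siCONTROL (-0.86), 170.5 on siSHISA2 and 246.1 on siCONTROL (-0.53), and 76.6 on siSHISA2 and 93.8 on siCONTROL (-0.29). The dimmest, at 40.5 on siSHISA2 and 82.0 on siCONTROL, was under the floor on the siSHISA2 array and at least 1.71-fold lower. PDK1 was lower on both measured probe sets, at 333.4 on siSHISA2 and 409.3 on siCONTROL (-0.30) and, near the floor, at 51.4 on siSHISA2 and 95.3 on siCONTROL (-0.89). PDHA1, the catalytic E1 alpha subunit that these kinases phosphorylate, was higher on all 3 probe sets, at 6779.6 on the siSHISA2 array and 6200.4 on the siCONTROL array (0.13), at 6479 on siSHISA2 and 6335 on siCONTROL (0.03), and at 653.9 on siSHISA2 and 480.0 on siCONTROL (0.45). Averaged over measured probe sets, PDK1 read -0.59 and PDK3 -0.53, both below 80% of the control. On the brightest probe set the ratio of PDK1 was -0.30, and those of PDK3 and PDHA1 were within 0.286 of 0. Outside the module, the subunits PDHB, DLAT and PDHX of the same enzyme complex were below 0 (-0.21, -0.19 and -0.10). The subunit DLD was above 0 (0.09, with 0.48 on a dimmer probe set). Of the other kinases, PDK4 was below 0 (-0.14). The dim PDK2, at 115.2 on siSHISA2 and 105.1 on siCONTROL, was above 0 (0.13, and 0.75 on its other probe set). Neither direction therefore held for all subunits or all kinases.

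Among HIF subunits, the mRNA of HIF1A was level and that of EPAS1 higher. HIF1A, the alpha subunit present in nearly all cells, had 16039 on the siSHISA2 array and 17221 on the siCONTROL array (-0.10). EPAS1, which encodes HIF-2 alpha, had 591.1 on siSHISA2 and 447.2 on siCONTROL (0.40, 1.32-fold), and 2.73% of the brighter genes had a ratio as high; its other 2 probe sets were under the floor on both arrays. ARNT, the constant beta subunit, had 594.3 on siSHISA2 and 568.9 on siCONTROL (0.06), with other probe sets at 0.01 and -0.33.

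Of the genes that dispose of HIF alpha, VHL had the highest log2 ratio of the module. VHL, the substrate-binding part of the ubiquitin ligase, had 632.7 on the siSHISA2 array and 443.6 on the siCONTROL array (0.51, 1.43-fold). A ratio as high was seen in 1.22% of the brighter genes. That probe set is of the _s_at kind, and the other one of VHL was under the floor on both arrays (7.0 on siSHISA2 and 16.4 on siCONTROL). EGLN1, the main oxygen-sensing prolyl hydroxylase, had 1838 on siSHISA2 and 2002 on siCONTROL (-0.12, with 0.01 and -0.05 on others). EGLN3, a prolyl hydroxylase that HIF itself induces, was under the floor on both of its probe sets, at 12.6 and 7.4 on the siSHISA2 array and 2.1 and 21.6 on the siCONTROL array. No ratio is given for EGLN3.

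The 12 HIF targets were split evenly, 6 above and 6 below 0, with a median of 0.02. The secreted products differed among themselves. ADM, the vasodilator peptide adrenomedullin, was higher at 4376 on the siSHISA2 array and 3193 on the siCONTROL array (0.45, 1.37-fold) on its single probe set, and 1.75% of the brighter genes had a ratio as high. ANGPTL4, an inhibitor of lipoprotein lipase, had 513.4 on siSHISA2 and 371.3 on siCONTROL (0.47), but its other probe set went the other way at 71.0 on siSHISA2 and 86.1 on siCONTROL (-0.28), and the mean of both was 0.09. VEGFA, the main endothelial growth factor and the classic HIF target, had 2851 on siSHISA2 and 3121 on siCONTROL (-0.13) on its brightest probe set and 0.12, 0.35 and -0.35 on the other 3. The 4 probe sets of VEGFA thus fell on both sides of 0.

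The mitophagy receptors BNIP3 and BNIP3L did not move together. BNIP3 had 3823 on the siSHISA2 array and 3347 on the siCONTROL array (0.19), with 0.04 on its other probe set. BNIP3L had 3004 on siSHISA2 and 3527 on siCONTROL (-0.23), with 0.16 on its other probe set (2084 on siSHISA2 and 1869 on siCONTROL). NDRG1, a stress-responsive gene that hypoxia induces strongly in many lines, had 1053 on siSHISA2 and 951.7 on siCONTROL (0.15). The collagen prolyl 4-hydroxylase subunits were level or slightly lower, P4HA1 with 3633 on siSHISA2 and 4019 on siCONTROL (-0.15) and P4HA2 with 6109 on siSHISA2 and 6211 on siCONTROL (-0.02).

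The nuclear members differed little between the arrays. KDM3A, a histone H3 lysine 9 demethylase, had 1347 on the siSHISA2 array and 1286 on the siCONTROL array (0.07). ANKRD37, an ankyrin-repeat protein and a direct HIF target, had 770.1 on siSHISA2 and 667.5 on siCONTROL (0.21). MXI1, an antagonist of MYC, had 1367 on siSHISA2 and 1455 on siCONTROL (-0.09). All 3 ratios were within 0.286 of 0.

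CA12, a membrane carbonic anhydrase that helps cells to export acid, had the lowest ratio of the module, at 75.9 on the siSHISA2 array and 124.5 on the siCONTROL array (-0.71, 61.0% of the control). Its other measured probe set had 12.8 on siSHISA2 and 79.1 on siCONTROL and was at least 1.65-fold lower. The remaining 5 of its 7 probe sets were under the floor on both arrays, and 2.07% of all measured genes had a ratio as low. The signals of CA12 are near the floor, where MAS5 signals are noisy.

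Compared with each other, the classes had medians of 0.02 for glycolytic enzymes, 0.02 for HIF targets, 0.06 for the 5 measured HIF subunits and regulators and -0.22 for the 3 genes of pyruvate dehydrogenase and its kinases, beside 0.01 over all measured genes. The median size of the log2 ratio was 0.08 for glycolytic enzymes, 0.12 for HIF subunits and regulators, 0.17 for HIF targets and 0.22 for the pyruvate dehydrogenase genes, beside 0.17 for all measured genes and 0.12 for those with both signals above 387.3.

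Other genes of the same pathways, none of them members, were read as lists. Among 9 measured transporters of glucose, lactate and pyruvate, 5 were above and 4 below 0, with a median of 0.02. SLC2A1, which encodes the glucose transporter GLUT1 and is a HIF target, was the exception in size at 436.5 on the siSHISA2 array and 211.5 on the siCONTROL array (1.05) on 1 probe set of the _s_at kind. SLC16A7, a monocarboxylate transporter, had 88.3 on siSHISA2 and 133.9 on siCONTROL (-0.60) and MPC1, of the mitochondrial pyruvate carrier, 784.2 on siSHISA2 and 888.6 on siCONTROL (-0.18). Of 9 measured genes listed as further glycolytic isozymes and related genes, 4 were above 0 and 5 below, with a median of -0.08. Those above 0 were ADPGK (0.02), TIGAR (0.16), PGAM5 (0.31) and PFKFB1 (0.51, with its siCONTROL signal under the floor). PGAM5 and TIGAR are not themselves enzymes of glycolysis. Of 11 genes of glycogen and gluconeogenesis 3 were above 0, with a median of -0.07. Among the genes of glycogen and gluconeogenesis, pyruvate carboxylase, PC, had 121.6 on siSHISA2 and 201.9 on siCONTROL (-0.73) and PCK2, the mitochondrial carboxykinase, 701.1 on siSHISA2 and 853.0 on siCONTROL (-0.28).

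The 6 measured genes of the pentose phosphate pathway, which branches off at glucose 6-phosphate, were all below 0 as deposited and under the 3 other scalings. Of all measured genes 47.8% were below 0 as deposited. PGLS, at -0.14 on the probe set used, read 0.27, -0.45 and, with its siCONTROL signal under the floor, 0.17 on its others. The median of the 6 genes was -0.14, and the lowest was PGD, a dehydrogenase that makes NADPH, at 607.0 on the siSHISA2 array and 719.7 on the siCONTROL array (-0.25). On the probe sets used, none was at or below 80% of the control. Of 14 measured genes of the tricarboxylic acid cycle, 10 were above 0 with a median of 0.04. OGDH, the E1 subunit of oxoglutarate dehydrogenase, was highest at 352.2 on siSHISA2 and 206.0 on siCONTROL (0.77), and its other measured probe sets were higher too (1.27 and 0.39). CS, citrate synthase, had 4793 on siSHISA2 and 3941 on siCONTROL (0.28). The isocitrate dehydrogenases IDH3G and IDH2 read 0.29 and -0.34, with the opposite sign on dimmer second probe sets (-0.61 and 0.95), and SUCLG2 read -0.26. The other 8 measured pyruvate dehydrogenase genes had 3 above 0 and a median of -0.08, with PDPR, a regulatory subunit of the phosphatase that reverses the kinases, at 953.3 on siSHISA2 and 703.1 on siCONTROL (0.44) and PDHB, the E1 beta subunit, at 3704 on siSHISA2 and 4283 on siCONTROL (-0.21).

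Further HIF regulators had 9 of 14 above 0 and a median of 0.11, and on the probe sets used all lay within 0.22 of 0, from -0.17 for the ligase scaffold CUL2 to 0.22 for the deubiquitinase USP20. Other probe sets went further, to -1.18 for CUL2, 0.91 for the coactivator CREBBP and 0.52 for the asparaginyl hydroxylase HIF1AN. Further HIF targets had 15 above and 15 below 0 with a median of -0.004. Of the 30, 6 were at least 25% above the control (background 13.1%) and 1 at or below 80% of it (background 12.0%). At 1.5-fold the counts were 3 (background 5.01%) and 1 (background 3.77%). SLC2A1, already read among the transporters, is in the higher counts. Besides SLC2A1, the heme oxygenase HMOX1, which oxidative stress also induces, was highest at 7322 on the siSHISA2 array and 4289.5 on the siCONTROL array (0.77), and the transcription regulator ZNF395 lowest at 619.5 on siSHISA2 and 942.8 on siCONTROL (-0.61, with 0.53 on a probe set near the floor). STC1, the secreted stanniocalcin-1, named after its values were seen, was higher on all 3 probe sets (0.43, 0.33 and 0.90), the brightest at 3186 on siSHISA2 and 2359 on siCONTROL.

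**Figure D4:**
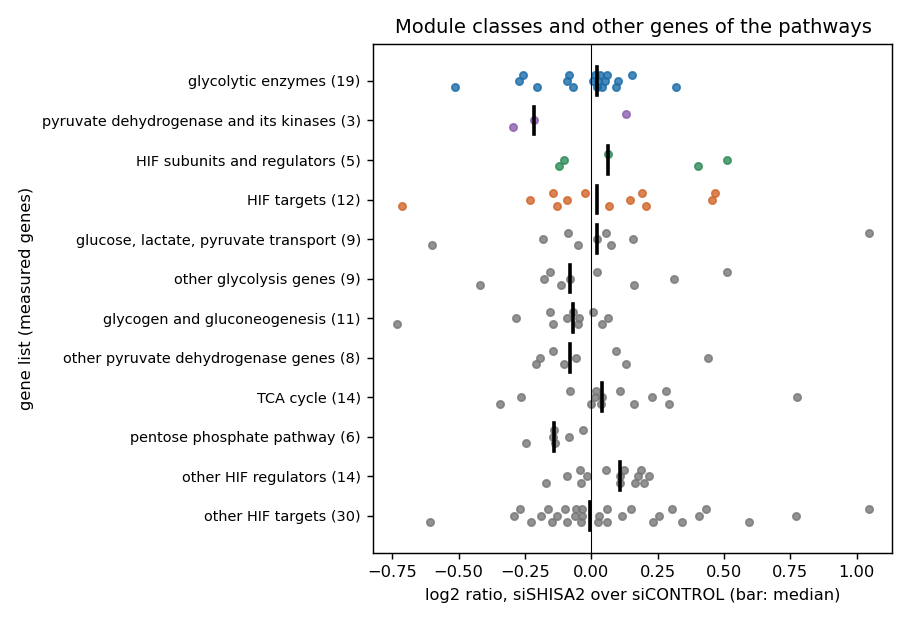
Log2 ratio of siSHISA2 over siCONTROL for the measured genes of each module class (colour) and of the other pathway lists (grey), with the median of each list as a black bar and the number of measured genes in parentheses; ratios with 1 signal under the floor are plotted at their lower bound in size. List medians lie between -0.22 for the 3 pyruvate dehydrogenase genes and 0.11 for other HIF regulators, and SLC2A1, at 1.05, appears in the transport list and among other HIF targets.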

How the data were processed

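Total RNA, 250 ng per array, was labelled with biotin by a 3′ in vitro transcription kit, per the labels' protocols. The deposited values are probe-set intensities on a linear scale that the authors made with MAS5, per the submitters' processing notes, with no version stated in the sources used here. The mean after trimming 2% at each end was 499.9 on both arrays, and no further scaling was applied. Of 54675 probe sets, 62 controls were left out, and 41097 are annotated to 1 gene (GEO's platform annotation, with names updated through the RefSeq table of GRCh38.p14, where 41043 matched). MAS5 signals near background are noisy, so signals under the median of all signals (47.9) were raised to it, which shrinks ratios of dim genes; where 1 signal was under it, the ratio is a bound.

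Groups came from the sample titles. With 1 array per group no p-value was computed, and a fold is a size. All 40 members, SHISA2 and, of each pathway list, up to 2 measured genes per direction with the largest ratios were to be named, with markers as counts; the marker genes and other list genes named beyond that were named after their values were seen. The members and lists were chosen with earlier results of these data known. Alternatives were median centring, quantile normalization, a loess trend (span 0.3), floors at the 25th (11.3) and 75th percentile (387.3), a pseudocount of 1 in place of the floor, averaging over probe sets, dropping those of the _x_at and _s_at kinds, and folds of 1.5 and 2. The steps were tested on simulated data with less noise than the technical SD of 0.286 and no variation between cultures. Genes with a ratio that is a bound were left out there. That test checks the computation only and not the precision of these ratios. Python 3.11.15, pandas 2.3.3, numpy 2.4.6 and statsmodels 0.14.6 were used.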

Additional observations from a re-analysis of the deposited data

How the results depend on the processing

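Over 8 alternative settings, 287 of 292 values of single members moved by less than 0.286 (the others were 1 each of ENO2, PDK1, PDK3, ANGPTL4 and PDHA1), and 0 members past the threshold changed sign. Signs changed for 9 members, all with ratios under 0.08 in size. The glycolytic median was 0.02 as deposited and -0.068 without _x_at and _s_at probe sets, where 9 of the 19 genes were left; it was -0.02 after quantile normalization and after loess. The median of HIF targets ranged from 0.01 to 0.08 and that of HIF regulators from -0.05 to 0.07, turning sign with lower floors, with probe sets averaged and without _x_at and _s_at ones. The count of members at or below 80% of the control was 2 as deposited, 0 with the floor at 387.3, which removes dim genes, 4 with probe sets averaged (PDK1 and PDK3 joined), and 1 without _x_at and _s_at probe sets, where 22 members were measured. The count at least 25% above it was 4, and 3 to 4 under the 8 settings. At 1.5-fold it was 0 higher and 1 lower, and at 2-fold 0 and 0. No paired analysis was possible because each group is 1 array. CA12 rests on signals near the floor.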
